A study of Arabidopsis thaliana with 7 samples.

Results

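Group VII ethylene response factors (ERFs) and the enzymes that turn them over were described at the transcript level in wild-type Arabidopsis thaliana seedlings of the Col-0 accession. The 10 genes were chosen by identifier and not by their counts, though earlier results of these data were known. All 10 were found among the 33602 genes of the count table. They are the transcription factor genes RAP2.12 (AT1G53910), RAP2.2 (AT3G14230), RAP2.3 (AT3G16770), HRE1 (AT1G72360) and HRE2 (AT2G47520), the plant cysteine oxidase genes PCO4 (AT2G42670) and PCO5 (AT3G58670), the arginyl transferase genes ATE1 (AT5G05700) and ATE2 (AT3G11240), and the ubiquitin ligase gene PRT6 (AT5G02310). RNA was sequenced from 3 replicate samples of 1 group, whole seedlings raised on MS plates at 22 °C for 14 days in a daily cycle of 16 h light and 8 h darkness. The labels name no mutation, transgene or low-oxygen treatment in any sample. The study set out to relate transcription to H3K4 methylation, whose chromatin libraries were not analysed here. Whether the replicates were grown as separate plants is not stated in the labels, so p-values reflect the spread of these samples alone, and that spread may be technical. The medium and the light regime were shared by every sample, so no contrast between oxygen levels could be made.

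In this pathway the group VII ERFs are made with a cysteine next to the initiator methionine. Once the methionine has been removed, the PCO enzymes use oxygen to oxidise the cysteine, the ATE enzymes attach an arginine to it, and PRT6 marks the protein for degradation. When oxygen is short the cysteine stays unoxidised, the factors accumulate and they switch on genes of fermentation. Nitric oxide is also needed for their degradation. RAP2.12, RAP2.2 and RAP2.3 are known as constitutively transcribed members, whereas HRE1, HRE2, PCO1 and PCO2 are known as genes that low oxygen induces. These are features of the proteins and of earlier work, and transcript counts do not show protein stability.

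The 3 libraries held 30946664, 18493022 and 20764970 counts in replicates 1, 2 and 3. Levels are given as CPM, counts scaled to 1000000 of the library total. Low counts were mostly even: 84.5 to 86.2% of values from 1 to 19 counts were even, against 49.9 to 51.1% of values of 1000 and over. The intervals below cover counting error only and take each count as a separate molecule. Where counts come in pairs they are too narrow. The share of rRNA genes in replicates 1, 2 and 3 was 1.20, 1.39 and 2.97%. All 5 shoot and root markers were expressed, from PHT1;1 (a root phosphate transporter) at 42.6 ± 0.860 CPM to RBCS1A (a small subunit of Rubisco) at 10326 ± 475 CPM (SD, n = 3). Of 6 markers of flower, seed and pollen none reached 1 CPM, and LEC1 had no count, which allows up to 0.0970, 0.160 and 0.146 CPM in replicates 1, 2 and 3. In these whole-seedling samples, fewer cells of a type and less RNA per cell cannot be told apart.

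All 10 genes were expressed, taken as a 3-library mean of 1 CPM or more. That mean was reached by 56.3% of the genes in the table and by 69.2% of protein-coding genes. Of the 10, 3 had a mean of 100 CPM or more, 4 lay from 10 to under 100 CPM and 3 from 1 to under 10 CPM. Their median was 28.4 CPM, against 19.1 CPM for all expressed genes, 8.20 CPM for protein-coding genes and 2.95 CPM for all genes of the table. In descending order of CPM they were RAP2.3, RAP2.12, PRT6, RAP2.2, ATE1, PCO5, PCO4, ATE2, HRE1 and HRE2. PRT6 and RAP2.2 were the only neighbours in that order whose ranges over the libraries overlapped. No transcript lengths of the authors' annotation were used here, so CPM also depends on transcript length and this order is one of counts, not of transcript number.

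**Figure D1:**
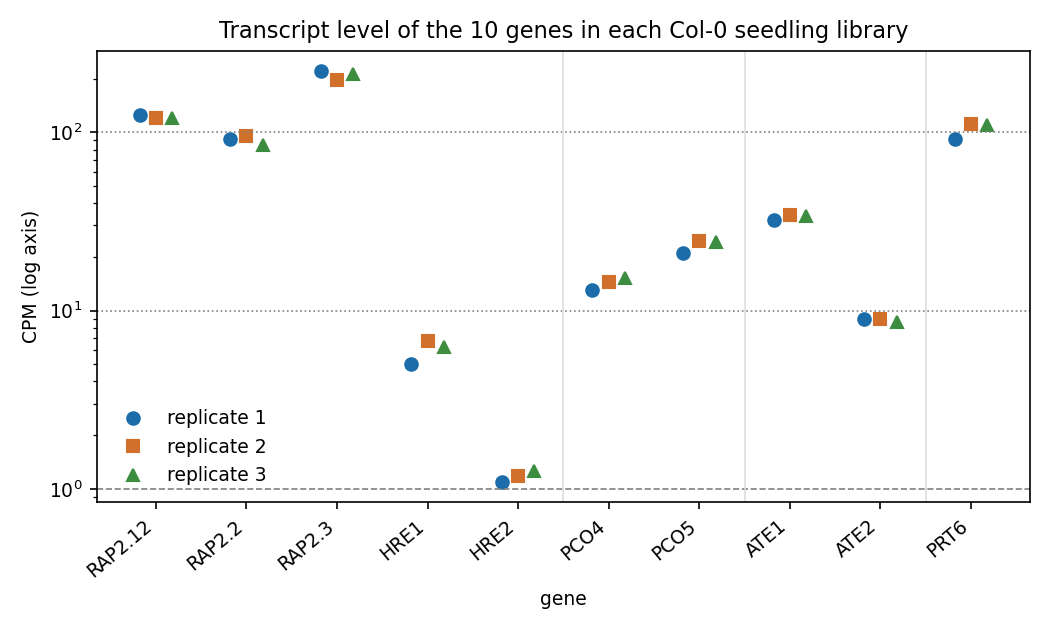
CPM of each gene (x axis) in each library (points, log y axis), with the expression threshold at 1 CPM dashed and the class bounds at 10 and 100 CPM dotted. RAP2.3 lies highest at 197 to 219.8 CPM and HRE2 lowest at 1.10 to 1.27 CPM, and PRT6 lies on both sides of 100 CPM.

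Among the transcription factors, the 3 RAP2 genes held nearly all of the counts. RAP2.3, listed as EBP in the gene table and known as an activator of hypoxia genes, stood at 219.8, 197 and 212 CPM in replicates 1, 2 and 3 (209.7 ± 11.5 CPM, SD, n = 3), at percentile 96.2 of expressed genes. RAP2.12, which is held at the plasma membrane in normal air and moves to the nucleus under hypoxia, stood at 125, 121 and 120.4 CPM (122 ± 2.44 CPM, percentile 92.1). RAP2.2, its close relative, stood at 91.3, 95.8 and 84.3 CPM (90.4 ± 5.80 CPM, percentile 88.1). The ranges of these 3 genes did not overlap. RAP2.12 was the steadiest of the 5 factors, with a coefficient of variation of 2.01%, where genes of 100 CPM and over had a median of 3.61%.

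The hypoxia-induced members were at the low end. HRE1, listed as ERF73, had 155, 126 and 128 counts, which is 5.01, 6.73 and 6.23 CPM (5.99 ± 0.887 CPM, percentile 22.2). Its 95% exact Poisson intervals were 4.25 to 5.86, 5.61 to 8.02 and 5.20 to 7.41 CPM, so the lower value of replicate 1 could not be told from the others at this depth (edgeR goodness-of-fit with dispersion 0, adjusted p = 0.0846). HRE2, listed as ERF71, had 34, 22 and 26 counts, which is 1.10, 1.18 and 1.27 CPM (1.18 ± 0.0838 CPM, percentile 1.42). Its intervals of 0.761 to 1.54, 0.737 to 1.78 and 0.827 to 1.86 CPM all include the 1 CPM threshold, so its place above that threshold is not firm at this depth. All 3 HRE2 counts were even, as were all 3 counts of RAP2.2 and of PCO5, which lie higher. In the gene table the span of HRE1 overlaps that of P40 (AT1G72370), a gene of the small ribosomal subunit at 326, 290.4 and 297 CPM. The table gives no strand, and no source used here states the strand setting of the counting, so the part of P40 reads in the HRE1 counts was not tested.

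The make-up of the family was nearly the same in each library. RAP2.3 held 49.7, 46.8 and 50.02% of the group VII ERF counts in replicates 1, 2 and 3, RAP2.12 28.2, 28.6 and 28.4%, and RAP2.2 20.7, 22.7 and 19.9%. HRE1 and HRE2 together held 1.38, 1.88 and 1.77% (95% exact binomial intervals 1.19 to 1.59, 1.59 to 2.2 and 1.5 to 2.07%). Summed over the 5 genes, the level was 442, 421 and 424 CPM (429 ± 11.04 CPM). RAP2.12 had 1.37, 1.26 and 1.43 times the counts of RAP2.2, a mean log2 ratio of 0.43 ± 0.09. HRE2 had 0.219, 0.175 and 0.203 times the counts of HRE1, a mean log2 ratio of -2.34 ± 0.17. These ratios do not depend on how libraries were scaled. Transcript length affects their size and can affect their sign, but not how they vary between libraries.

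**Figure D2:**
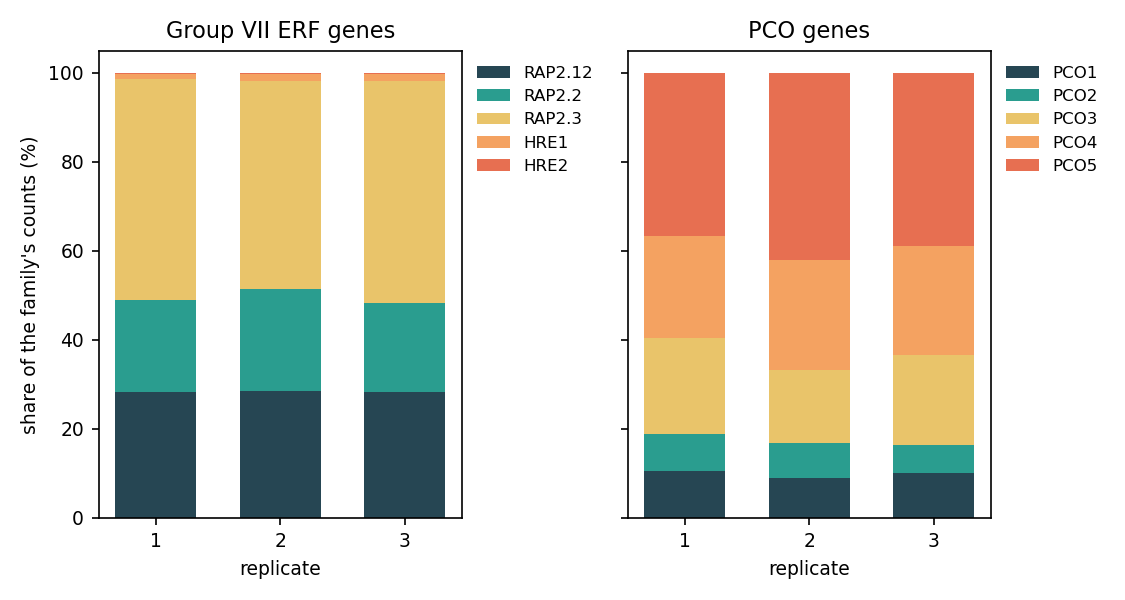
Share of each family's counts (y axis, %) held by each gene in the 3 libraries (x axis), for the 5 group VII ERF genes and the 5 PCO genes. HRE1 and HRE2 form the thin band of 1.38 to 1.88% at the top of the first panel, and PCO5 is the largest block of the second at 36.8 to 41.98%.

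The oxygen sensors themselves were transcribed at middle levels. PCO5 stood at 20.9, 24.5 and 24.2 CPM (23.2 ± 1.95 CPM, percentile 55.2 of expressed genes), lowest in replicate 1. PCO4, its paralog, stood at 13.1, 14.4 and 15.2 CPM (14.2 ± 1.11 CPM, percentile 42.1), also lowest in replicate 1. PCO4 had 0.623, 0.590 and 0.631 times the counts of PCO5, a mean log2 ratio of -0.70 ± 0.05. The remaining 3 genes of the family were lower. PCO3 stood at 12.3, 9.62 and 12.6 CPM (11.5 ± 1.62 CPM), a range just below that of PCO4 and without overlap. The hypoxia-induced pair stood at 6.01, 5.24 and 6.23 CPM for PCO1 and 4.72, 4.54 and 3.99 CPM for PCO2. PCO4 and PCO5 together held 59.7, 66.7 and 63.4% of the PCO counts, and PCO1 and PCO2 together 18.8, 16.8 and 16.4%. The PCO sum was 57.0, 58.3 and 62.2 CPM (59.2 ± 2.71 CPM).

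Of the arginyl transferase genes, ATE1 held most of the counts. ATE1 stood at 32.4, 34.3 and 33.9 CPM (33.5 ± 1.01 CPM, percentile 65.6) and ATE2 at 9.02, 8.98 and 8.57 CPM (8.86 ± 0.247 CPM, percentile 30.3). The ranges were far apart, and both genes were steady, with coefficients of variation of 3.02 and 2.79%. ATE1 had 3.59, 3.82 and 3.95 times the counts of ATE2 (mean log2 ratio 1.92 ± 0.07), which is 78.2, 79.2 and 79.8% of their summed counts. Both encode the enzyme that adds arginine to an oxidised cysteine. The span of ATE2 overlaps AT3G11230, a gene at 16.4, 21.2 and 16.9 CPM, and no source used here states how such reads were assigned. The part of AT3G11230 reads in the ATE2 counts was not tested.

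PRT6, which encodes the ligase that recognises the added arginine, stood at 92.1, 111 and 109.7 CPM (104 ± 10.6 CPM, percentile 90.1). It was under 100 CPM in replicate 1 and above it in the other two, so it was the 1 gene of the 10 that did not keep its class of transcription level. PRT6 had 2.85, 3.24 and 3.24 times the counts of ATE1 (mean log2 ratio 1.63 ± 0.11), again lowest in replicate 1. Its span overlaps MYB3R-5 (AT5G02320), which stood at 4.63 to 5.04 CPM. Over the 6 ratios examined (these 5 and RAP2.12 to RAP2.3, at a mean log2 ratio of -0.78 ± 0.06) each kept its sign in 3 of 3 libraries. An exact sign-flip test gave a two-sided p of 0.25 for each, adjusted p = 0.25, the smallest that 3 libraries allow. Sign and size are those of counts, with no correction for transcript length.

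None of the 10 genes was called as varying between the libraries beyond genes of its own level. The coefficient of variation was 10.2% for PRT6, 5.49% for RAP2.3 and 2.01% for RAP2.12. Genes of 100 CPM and over had a median of 3.61%. In edgeR's goodness-of-fit test with the trended dispersion, 0.148% of 18915 expressed genes (28 genes) passed an adjusted p of 0.05 and 0 of the 10 did. At an unadjusted p under 0.05 the same edgeR test held 791 genes in all and 1 of the 10, which was PRT6. Its edgeR p was 0.0195, adjusted p = 1.00. With the dispersion set to 0, which asks only for variation beyond counting error, 32.8% of expressed genes passed and 4 of the 10 did: PRT6 (edgeR goodness-of-fit adjusted p = 2.51e-11), RAP2.3 (1.51e-05), RAP2.2 (0.00407) and PCO5 (0.0421). The 4 of 10 are to be read against that background share. The PRT6 call was lost without replicate 1 (edgeR adjusted p = 0.886), the RAP2.3 call without replicate 2 (0.195), the RAP2.2 call without replicate 3 (0.278), and the PCO5 call without any 1 of them (0.951, 0.0721 and 0.0599). With counts halved, only RAP2.3 and PRT6 of the 10 passed, and 1207 genes in all. Where counts come in pairs, the test on unhalved counts takes counting error as too small, so its calls may be too many.

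Of the 10 genes 6 were lowest in replicate 1, namely HRE1, HRE2, PCO4, PCO5, ATE1 and PRT6, where 31.9% of all expressed genes were lowest. Relative to the gene's own mean log2 CPM, replicate 1 was at -0.25 for HRE1, -0.17 for PRT6, -0.14 for PCO5, -0.12 for PCO4, -0.10 for HRE2 and -0.05 for ATE1. The 3 RAP2 genes and ATE2 were slightly above their means there, by 0.02 to 0.07. Of the 6 genes lowest there, PCO5 and PRT6 alone passed the test with the dispersion set to 0. No test of a shared shift was made. Replicate 1 was the deepest library and had the lowest rRNA share, and the part of either in these differences was not tested.

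**Figure D3:**
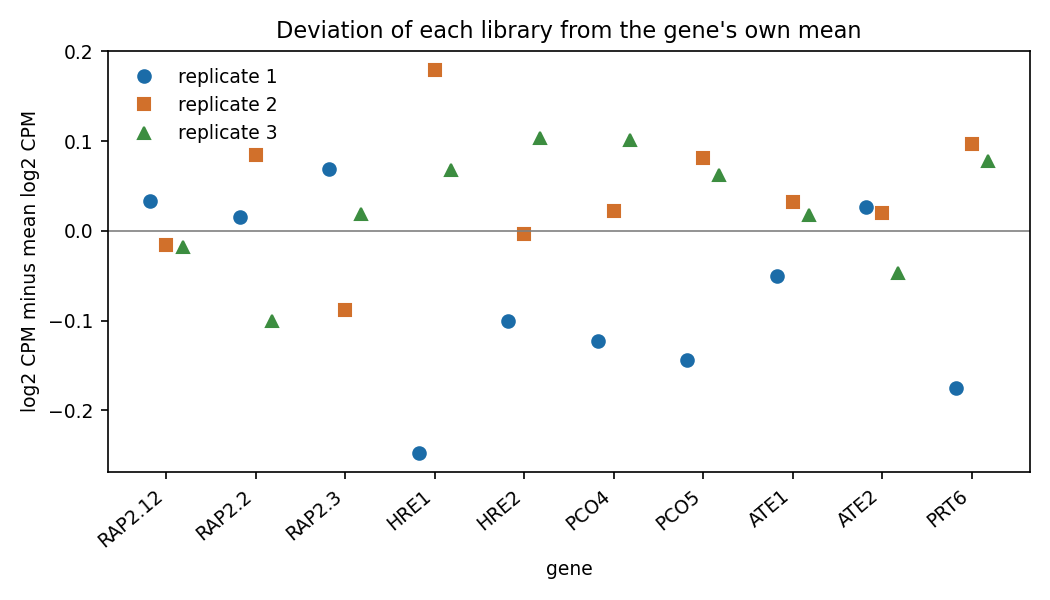
Difference of each library (points) from the gene's mean log2 CPM over the 3 libraries (y axis, log2 units) for the 10 genes (x axis). Replicate 1 lies lowest for 6 genes, down to -0.25 for HRE1, and above 0 for the 3 RAP2 genes and ATE2.

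Other substrates and enzymes of the N-degron pathway were transcribed too, with 1 exception. VRN2, a Polycomb subunit that is also degraded through an N-terminal cysteine, stood at 25.7, 29.3 and 31.7 CPM (28.9 ± 3.04 CPM). ZPR2, a small leucine zipper protein of the shoot meristem and an N-degron substrate as well, had 11, 6 and 8 counts, or 0.355 ± 0.0345 CPM, under the threshold. Of the 10 other N-degron enzyme genes all 10 were expressed, against 69.2% of protein-coding genes, with a median of 29.9 CPM. Of these, the methionine aminopeptidase genes, whose products remove the initiator methionine, ranged from AT3G25740 at 16.0 ± 0.948 CPM through MAP2A at 26.4 ± 2.4, MAP1A at 33.4 ± 1.71, MAP1D at 57.5 ± 3.02 and MAP2B at 77.1 ± 2.19 CPM to AT1G13270 at 90.4 ± 1.96 CPM. PRT1, a ligase for bulky aromatic N-termini, stood at 20.6 ± 1.22 CPM. The listed genes AT2G44420 and AT2G41760, which the gene table leaves unnamed, stood at 11.4 ± 1.16 and 10.7 ± 0.664 CPM.

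BIG (AT3G02260), which encodes a very large protein that acts with PRT6 in the degradation of these substrates, was the highest of those 10 genes and the only one that varied beyond genes of its own level. It stood at 252, 290.1 and 346 CPM in replicates 1, 2 and 3 (296 ± 46.9 CPM; edgeR goodness-of-fit adjusted p = 0.0132). Like PRT6 it was lowest in replicate 1, and it was highest in replicate 3. For PRT6, replicates 2 and 3 stood at 111 and 109.7 CPM and could not be told apart. Without replicate 1, its edgeR goodness-of-fit test with dispersion 0 gave an adjusted p of 0.886. The BIG call was lost without replicate 1 (edgeR adjusted p = 0.947), without replicate 3 (0.998) and with a common dispersion (0.273). The BIG call held without replicate 2 (0.0385).

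Genes whose products bind or modify the group VII ERFs were all expressed, 6 of 6 against 69.2% of protein-coding genes. Their median was 17.8 CPM. The acyl-CoA-binding proteins that hold RAP2.12 at the membrane stood at 19.3, 15.7 and 14.7 CPM (ACBP1) and at 13.96, 13.2 and 14.3 CPM (ACBP2). ACBP1 was highest in replicate 1, where ACBP2 lay between its other values. HRA1, a hypoxia-induced factor that restrains RAP2.12, stood at 5.98, 4.76 and 5.99 CPM. MED25, a Mediator subunit, stood at 38.6 ± 2.2 CPM, SINAT2, a ubiquitin ligase that binds RAP2.2, at 32.2 ± 0.241 CPM, and the calcium-dependent kinase gene CPK12, listed as CDPK9, at 19.04 ± 2.11 CPM. The 3 phytoglobin genes were each highest in replicate 1. HB1, which is induced by hypoxia and scavenges nitric oxide, stood at 9.08, 8.39 and 6.09 CPM, HB2 at 63.3, 61.9 and 59.1 CPM, and AT4G32690 (GLB3) at 9.37, 6.68 and 6.82 CPM. None of these 9 genes passed edgeR's goodness-of-fit test with the trended dispersion, nor had any an unadjusted p under 0.05 (lowest 0.0895, for HB1).

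Genes listed under the response to low oxygen ranged from under 1 CPM to 183 CPM in these seedlings. Whether each of them is a target of the group VII ERFs was not examined. Of 26 hypoxia-response genes, which include PCO1, PCO2, HRA1 and HB1 given above, 25 were expressed, with a median of 12.8 CPM over the list. The share of protein-coding genes expressed was 69.2%. At the top were ALAAT1 (alanine aminotransferase) at 183 ± 2.68 CPM, PDC2 (pyruvate decarboxylase) at 122 ± 1.72 CPM, RBOHD (an NADPH oxidase) at 88.6 ± 2.4 CPM and ACHT5 (a thioredoxin) at 58.6 ± 3.21 CPM. At the bottom were SRO5 at 3.99 ± 0.356 CPM, AT4G33560 at 2.74 ± 0.850 CPM, AT4G10270 at 2.14 ± 0.606 CPM and the aquaporin gene NIP2;1 at 0.881 ± 0.0455 CPM, the 1 gene under the threshold. No gene of the list passed edgeR's goodness-of-fit test with the trended dispersion. At an unadjusted p under 0.05 there was 1, the phosphofructokinase gene PFK6, named here after its values were seen, at 9.28, 5.35 and 9.60 CPM (edgeR adjusted p = 0.668). With the dispersion set to 0, 6 of the 25 passed, against 32.8% of all expressed genes. The list was highest in replicate 1 for 13 of its 25 expressed genes, where 33.3% of all expressed genes were highest. HRE1 and HRE2 were lowest in that library, but neither varied beyond counting error (edgeR goodness-of-fit with dispersion 0, adjusted p = 0.0846 and 0.901). No test of the list against these 2 genes was made.

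**Figure D4:**
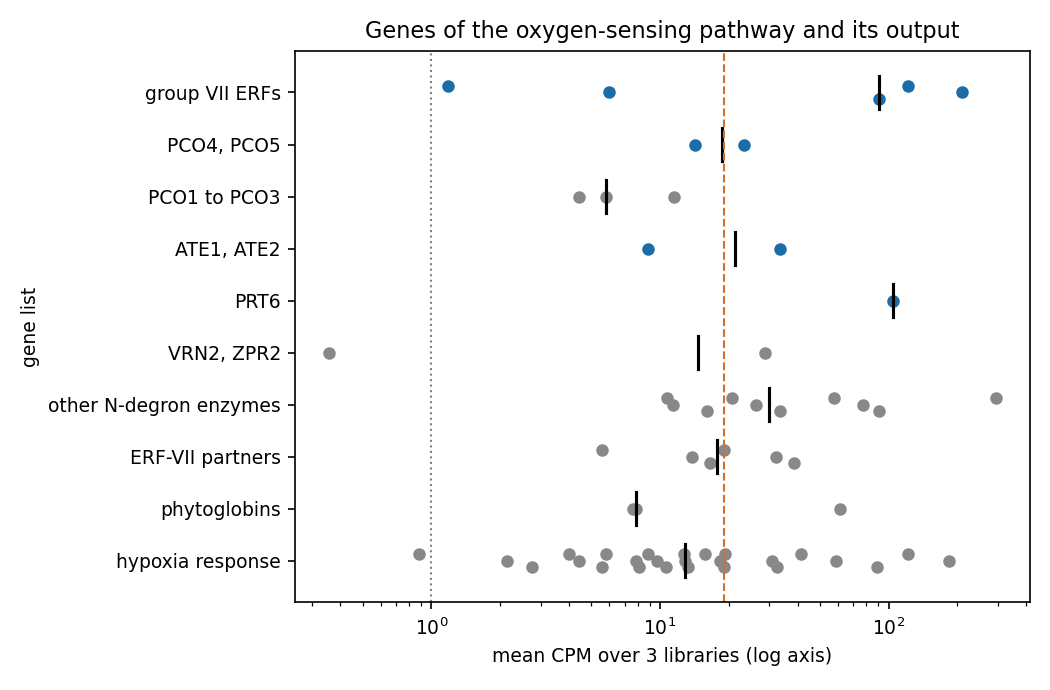
Mean CPM over the 3 libraries (log x axis) of each gene (points) in each pathway list (y axis, organ markers not drawn), the 10 genes of the sensing pathway in blue and the others in grey, with list medians as black bars, the 1 CPM threshold dotted and the median of all expressed genes, 19.1 CPM, dashed. The group VII ERFs fall into a high group at 90.4 to 209.7 CPM and a low pair at 1.18 and 5.99 CPM, and ZPR2 and NIP2;1 are the only genes drawn under 1 CPM.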

How the data were processed

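The authors deposited raw counts per gene for 3 RNA libraries of Col-0 seedlings, with no normalization. The submitters' processing notes name cutadapt, HISAT2, Bowtie2 2.4.5, SAMtools 1.13, featureCounts, deepTools 3.5.1 and the build TAIR10, with no role or order; the libraries were stranded, per the labels' protocols. Annotation release and the handling of strand, read pairs and multi-mapping reads are not stated in any source used here, so the split between paralogs or overlapping genes is uncertain.

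Library totals were scaled by TMM to give CPM (edgeR 4.0.16, R 4.3.3). For replicate spread an intercept-only model was fitted in edgeR to the 18915 genes whose mean was 1 CPM or more, and its goodness of fit (2 degrees of freedom) gave a p per gene. These were adjusted by Benjamini-Hochberg over all 18915 genes and called at 0.05. The procedure was tested on simulated data. That run used the trended dispersion and counts that do not come in pairs. It therefore does not bear on the test with the dispersion set to 0 or on paired counts. Symbols, neighbours and overlaps were read from the RefSeq table for TAIR10.1, which held 32835 of the 33602 identifiers. Of 67 listed genes, 6 have list names that the table does not hold and are given by identifier, as are AT1G13270 and AT3G25740, whose symbols and synonyms differ there.

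The members and lists were chosen with earlier results of these data known. All members and all genes of pathway lists of up to 10 genes are named, organ markers by their extremes, and of the hypoxia list the 4 highest and 4 lowest. Levels per coding length and proteins starting with Met-Cys were planned, but no protein sequences or transcript lengths were used here. Ratios and shares are therefore of counts.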

Additional observations from a re-analysis of the deposited data

How the results depend on the processing

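All 10 genes stayed expressed under median-of-ratios scaling, plain library totals, totals without rRNA genes, halved counts and without each replicate in turn, and 9 did at a threshold of 2 CPM, an alternative chosen after seeing the data. No alternative tried called any of the 10 with the trended or common dispersion, and every count ratio kept its sign where recomputed (halved counts and without each replicate). Over all genes the trended test called 28 genes, 3 to 29 without 1 replicate (17 without replicate 1, 3 without replicate 3), and 161 with a common dispersion. Variation beyond counting error was called for 4 of the 10 genes and 6197 in all. Without 1 replicate it was 2 of the 10 and 2964 to 3862 in all, with fewer samples. With halved counts it was 2 of the 10 and 1207 in all. Halving widens counting error, and where counts come in pairs the test on unhalved counts takes counting error as too small. How far each applies was not tested. Scaling and a filter of 0.1 CPM left the 4 calls in place. No paired analysis was possible because there is only 1 RNA group. Depth limits HRE2, at 22 to 34 counts.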

Other observations

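In the gene table both cysteine oxidase genes lie beside a gene of the same small family, MBF1, whose products are transcriptional coactivators. PCO4 lies next to MBF1A (AT2G42680), which stood at 88.7 ± 4.84 CPM, and PCO5 next to MBF1B (AT3G58680), at 185 ± 2.29 CPM. In each neighbourhood the MBF1 gene had the higher CPM, and the B copy and PCO5 were the higher of each pair, on a scale not corrected for transcript length. HRE2 lies between FUM1 (AT2G47510, a fumarase), at 85.9 ± 2.65 CPM, and AT2G47530, which had 26, 10 and 2 counts in replicates 1 to 3. HRE1 lies between P40 and AT1G72350, which had no count in any library.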
